A study of Homo sapiens with 9 samples.

Results

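RNA levels of 35 genes of cholesterol and fatty acid synthesis were examined in U937-Cas9 cells with and without an IRF2 knockout. The genes were taken as the rows of the count table whose Ensembl identifier, without its version number, maps to a set list of symbols, and they make up 35 of 20265 rows. They comprise 7 enzymes of the mevalonate pathway, 11 enzymes that lead from squalene synthesis to cholesterol, 5 genes of SREBP control and sterol transport, 7 enzymes of fatty acid synthesis, and 5 genes of the LXR receptors and cholesterol efflux. Of the 35, 31 had enough reads to be tested, against 11517 of all rows (56.8%). HSD17B7, ELOVL6, ABCA1 and ABCG1 were too low.

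U937 is a long-established line of human monocytic cells, and Cas9 is the nuclease used to cut a gene at a chosen site. The data are 9 RNA-seq libraries, 3 from WT cells, 3 from cells of genotype IRF2KO and 3 from cells labelled IRF2KO_pIRF2, so that all 9 share the U937-Cas9 background. The labels name no drug, time or sterol condition, and do not say what pIRF2 encodes, whether the knockout is 1 clone, or whether replicates were separate cultures. P-values therefore measure the spread between these libraries, which may be technical.

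Cholesterol is built from acetyl-CoA through mevalonate, isoprenoid diphosphates, squalene and lanosterol, and fatty acids are built from the same acetyl-CoA. When membrane sterol is low, the protein SCAP escorts the membrane-bound SREBP transcription factors to the Golgi, where they are cut and released to switch on nearly every enzyme of both routes, and when sterol is high the protein INSIG1 holds SCAP back. INSIG1 is itself an SREBP target, so its RNA is often read as a gauge of SREBP activity. In monocytes and macrophages, oxysterols also bind the LXR receptors, which switch on cholesterol export and the SREBF1 gene. IRF2 is a DNA-binding factor of the interferon regulatory factor family.

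The promoters of 3 of these genes are shown. INSIG1 and MSMO1 were the only genes of the set to pass any test used here between IRF2KO and WT. SREBF2 was the only gene, of the 30 with a window, to match the exact letters TCACCCCAC of the sterol regulatory element. Each is 300 bases from RefSeq on GRCh38.p14, from 250 bases before to 50 after the annotated start, with the matched motifs in capitals. In SREBF2 the capitals mark a sterol regulatory element, the SREBP site, and then a CCAAT box on the opposite strand. In INSIG1 they mark a CCAAT box on the opposite strand and then an E-box, and in MSMO1 they mark CCAAT boxes, the site of NF-Y, a factor that works beside SREBP at many sterol genes.
SREBF2 (GRCh38.p14, chr22:41832855-41833154, plus strand): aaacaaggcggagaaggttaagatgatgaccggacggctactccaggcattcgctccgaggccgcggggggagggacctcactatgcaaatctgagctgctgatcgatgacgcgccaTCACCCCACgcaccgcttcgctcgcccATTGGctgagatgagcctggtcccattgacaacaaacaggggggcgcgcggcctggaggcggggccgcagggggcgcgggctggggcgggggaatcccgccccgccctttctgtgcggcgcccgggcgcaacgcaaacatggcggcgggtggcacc
INSIG1 (GRCh38.p14, chr7:155297628-155297927, plus strand): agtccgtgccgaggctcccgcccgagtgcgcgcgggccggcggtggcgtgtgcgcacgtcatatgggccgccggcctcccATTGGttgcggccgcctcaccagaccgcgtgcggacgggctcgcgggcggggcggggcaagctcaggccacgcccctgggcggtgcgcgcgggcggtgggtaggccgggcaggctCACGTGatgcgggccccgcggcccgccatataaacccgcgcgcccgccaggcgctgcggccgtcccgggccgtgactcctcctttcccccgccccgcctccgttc
MSMO1 (GRCh38.p14, chr4:165327419-165327718, plus strand): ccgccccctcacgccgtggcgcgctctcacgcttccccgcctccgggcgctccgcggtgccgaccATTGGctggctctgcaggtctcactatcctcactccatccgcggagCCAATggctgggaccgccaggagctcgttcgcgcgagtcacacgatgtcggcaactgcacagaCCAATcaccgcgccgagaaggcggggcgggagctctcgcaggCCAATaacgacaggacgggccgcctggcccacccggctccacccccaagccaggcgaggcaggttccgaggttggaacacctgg
Windows were found for 30 of the 35 genes (42 windows, as some genes had more than 1) and motifs were searched on both strands. ACAT2, FDFT1, SQLE, FASN and ABCG1 had none. The sterol regulatory element TCACCCCAC was present in 1 gene of the 30, in 2.38% of the windows of the set and in 0.43% of all 35116 windows. Only these exact letters were searched, so other forms of the site would not be found. The E-box CACGTG was present in LSS, SC5D, SCAP, INSIG1 and ABCA1, in 14.3% of the windows of the set and in 7.26% of all windows. The CCAAT box was present in 22 genes, in 61.9% of the windows of the set and in 34.6% of all windows. The interferon regulatory factor motif GAAANNGAA was present in EBP alone, in 2.38% of the windows of the set and in 8.11% of all windows. No match overlapped another in the 3 windows shown. A match is a description of the sequence only.

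Library totals were 14824907 to 23108288 counts, and 3 counts, taken as the floor of detection, were 0.129 to 0.196 CPM (reads relative to library size after TMM scaling). Mitochondrially encoded genes took 12.2% to 18.8% of counts. The libraries that stood farthest apart on the first principal component were WT replicate 1 and IRF2KO replicate 2, and without both the sign of the IRF2KO against WT value turned for 11 of the 31 tested genes. In SREBF1, SREBF2, MVK and TM7SF2 the value over all libraries was at least as large as its SE, and the turned value is given with the gene. The other values, each smaller than its SE, turned to 0.22 in IDI1, 0.20 in SC5D, 0.19 in HMGCS1, 0.15 in CYP51A1, 0.052 in FADS1, 0.037 in SQLE and -0.18 in MYLIP. IRF2 itself had 37.1, 39.1 and 44.1 CPM in WT, 23.5, 25.9 and 25.5 CPM in IRF2KO and 15.2, 18.1 and 18.4 CPM in IRF2KO_pIRF2, here called the libraries labelled pIRF2. It was lower in the IRF2KO libraries (-0.68 ± 0.13 on the log2 scale, ± SE; edgeR adjusted p = 0.043, or 0.10 once trends with GC content and length were removed), the direction that label names. It was lower still, not higher, in those labelled pIRF2 (against WT -1.22 ± 0.13, edgeR adjusted p = 0.0029), so directions for that group are those of libraries as labelled. Of the marker genes of the line, LYZ (535 to 689.5 CPM), ELANE (1065 to 2025 CPM), AZU1 (414 to 1238 CPM) and CD33 (76.6 to 93.2 CPM) were present, whereas CD14 (0 to 0.0859 CPM) and MPO (0.129 to 0.514 CPM) were at or near 0. The T-cell marker CD3D, the B-cell marker MS4A1, the erythroid marker GATA1 and the epithelial marker EPCAM had 0 counts in all 9 libraries. Of the same lists, the NK-cell marker NKG7 was present at 289 to 452 CPM, highest in IRF2KO replicate 2, and the fibroblast marker COL1A1 stood at 0.566, 0.131 and 0.924 CPM in WT, 0.623, 0.962 and 0.676 in IRF2KO and 2.105, 2.48 and 1.86 in those labelled pIRF2. The 5 B-cell markers, of which 3 were tested, summed to 13.7 to 19.1 CPM in WT, 19.6 to 30.0 in IRF2KO and 17.7 to 19.3 in those labelled pIRF2, and the 15 monocytic markers to 4461 to 6990.0, 5689 to 9293 and 5268 to 5512 CPM. Their part in the results below was not tested.

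Both synthesis routes were expressed in these cells, at widely differing levels, whereas cholesterol export was nearly silent. Of the 35 genes, 10 stood at 100 CPM or more in every library, the regulators INSIG1 and SREBF2 among them. Enzymes such as TM7SF2 (5.20 to 12.2 CPM), SC5D (6.17 to 9.53 CPM) and MVD (9.22 to 23.5 CPM) were far lower. Per kilobase of exon annotated in GENCODE 29, the scale used to compare genes, the highest level in WT was that of SCD, the desaturase that makes oleate (252 ± 11.5 CPM per kb, SD, n = 3), followed by FDFT1, squalene synthase (119 ± 13.1), INSIG1 (82.6 ± 1.498), FDPS, farnesyl diphosphate synthase (70.0 ± 6.69), and EBP, a sterol isomerase (54.9 ± 4.28). FDPS lay above EBP and below INSIG1 by more than their SDs. DHCR7 (39.2 ± 8.05) and IDI1 (39.0 ± 10.8) came next and did not differ from each other beyond their spread. At the other end, the tested genes SC5D (1.42 ± 0.277), MVK (1.65 ± 0.479) and NR1H3 (1.78 ± 0.295) overlapped within their SDs.

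**Figure D1:**
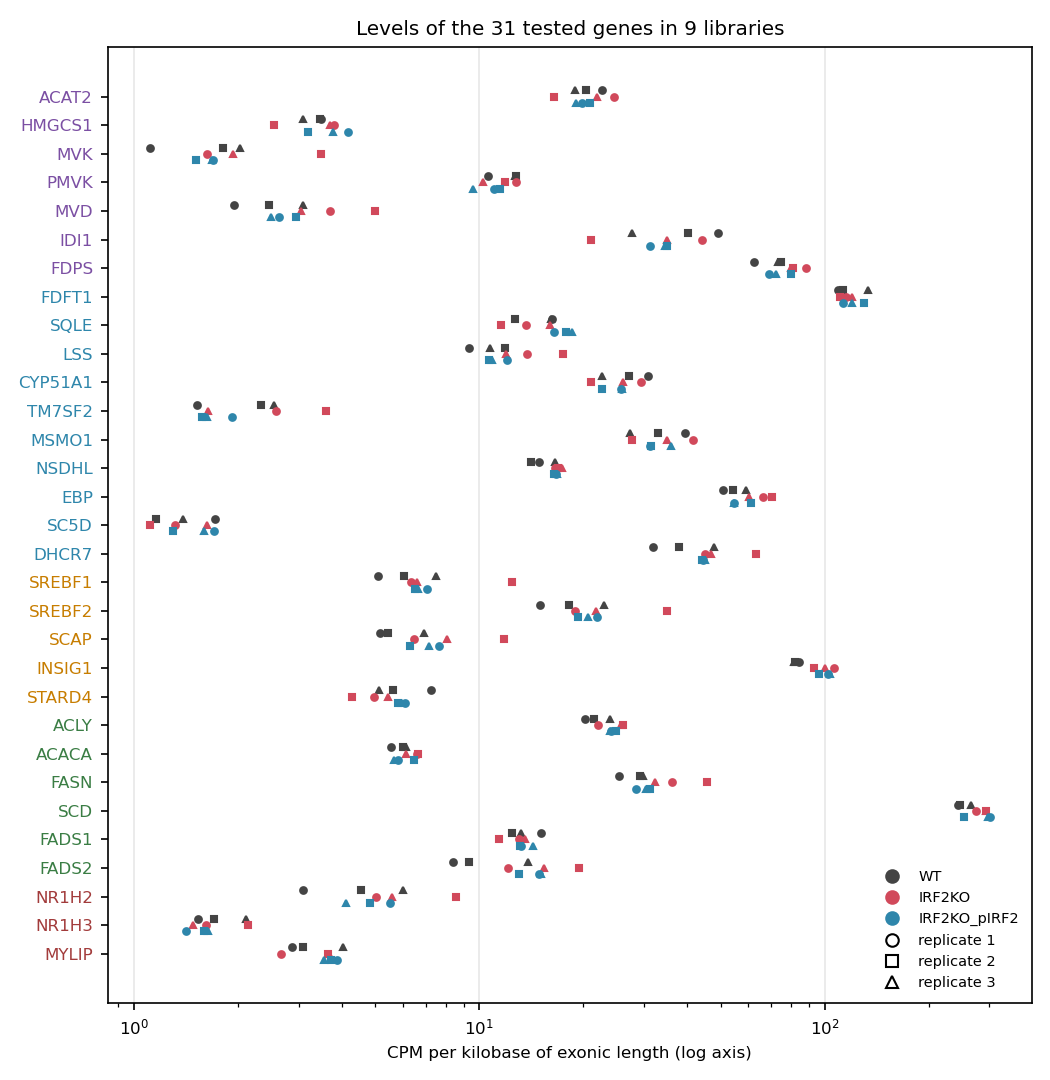
Level of each of the 31 tested genes in the 9 libraries, as CPM per kilobase of exonic length on a log axis. Colours give the group, symbols the replicate number, and label colours the role of the gene; SCD lies at the right (252 CPM per kb in WT) and SC5D at the left (1.42), while IRF2KO replicate 2 (red squares) is the outermost point for many genes.

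No gene of either route passed the test in any of the 3 comparisons. In IRF2KO, FASN, MVD, LSS, SCAP, FADS2, MVK, NR1H2 and SREBF1 stood above WT by log2 values of 0.44 to 0.65 without passing it. With GC and length trends taken out these values were -0.054 to 0.23. Without WT replicate 1 and IRF2KO replicate 2, MVK, NR1H2 and SREBF1 stood at -0.11, 0.0018 and -0.066, and the others at 0.19 to 0.27. INSIG1 and MSMO1 passed in IRF2KO against WT only with GC and length trends taken out. By the edgeR quasi-likelihood F-test, adjusted over 11517 genes by the method of Benjamini and Hochberg, 0 of 31 passed in IRF2KO against WT, where 0.417% of all genes did, 0 of 31 in the libraries labelled pIRF2 against IRF2KO (0.365% of all genes), and 0 of 31 in those labelled pIRF2 against WT (0.0781%). DESeq2 also passed 0 of 31 in each (1.05%, 0.59% and 0.339% of all genes), as did limma-voom (0.408%, 0.391% and 0.104%). At an unadjusted p under 0.05, 9 genes were higher and 0 lower in IRF2KO than in WT (SCAP, FADS2, EBP, LSS, FDPS, MVD, FASN, DHCR7 and INSIG1), where 10.7% of all genes were higher and 7.98% lower. In the libraries labelled pIRF2, 1 gene was higher (SQLE; 4.38% of all genes) and 4 were lower (TM7SF2, LSS, MVD and FASN; 6.82%) than in IRF2KO. Against WT, 2 were higher (FADS2 and INSIG1; 1.84%) and 0 lower (2.08%). The comparisons share libraries, so their values are not independent of each other.

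Most differences were bounded within 2-fold. Taken over the 31 genes, the median log2 fold change was 0.17 in IRF2KO against WT (21 above 0; 48.5% of all genes, median -0.013), -0.11 in the libraries labelled pIRF2 against IRF2KO (9 above 0; 50.2%, median 0.0016) and 0.084 in those labelled pIRF2 against WT (21 above 0; 47.1%, median -0.011). The 95% interval of the fold lay within 2-fold either way for 26, 29 and 31 of the 31 genes, and for 84.7%, 89.0% and 92.3% of all genes. In these bulk samples, fewer cells that express a gene and less of its RNA in each cell cannot be told apart.

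**Figure D2:**
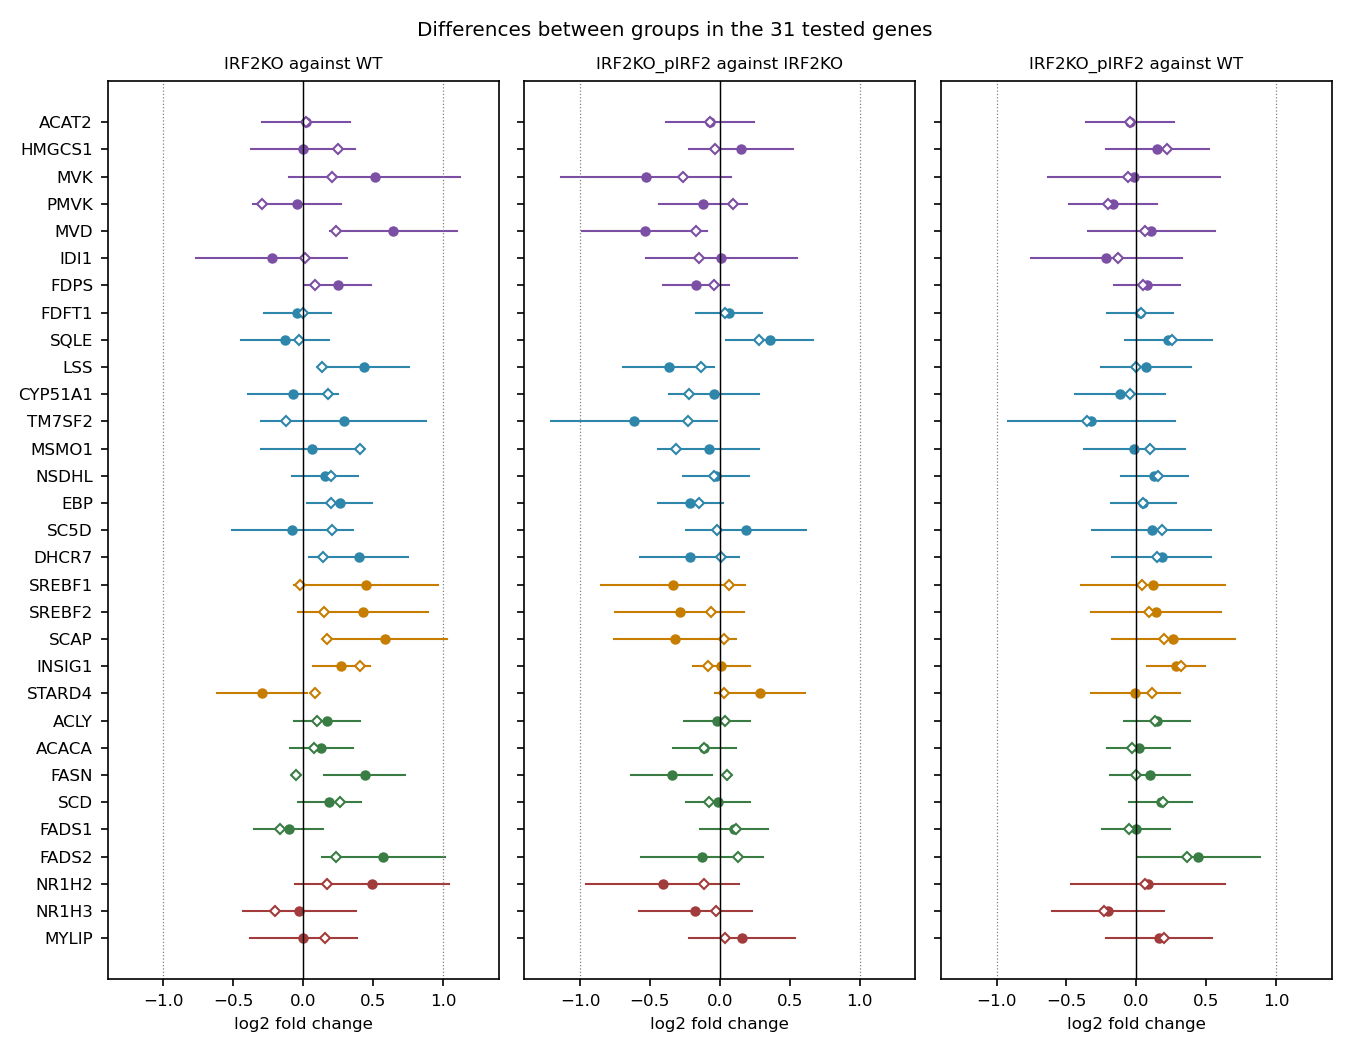
Log2 fold change of the 31 tested genes in each comparison. Filled circles with bars give the value and its 95% interval, open diamonds the value after trends with GC content and length were removed, and dotted lines mark 2-fold; no filled circle passed the test after adjustment, and in IRF2KO against WT the diamonds of FASN (-0.054) and SREBF1 (-0.020) lie at the other side of 0.

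All 7 mevalonate enzymes were tested and 0 passed in any comparison, and their median log2 fold change in IRF2KO against WT was 0.023. MVD, which decarboxylates mevalonate diphosphate to the first isoprenoid unit, lies on chromosome 16, 88651935 to 88663161, minus strand (GRCh38). It had 9.22, 11.6 and 14.5 CPM in WT, 17.4, 23.5 and 14.4 CPM in IRF2KO and 12.4, 13.9 and 11.8 CPM in libraries labelled pIRF2. The highest WT library lay just above the lowest IRF2KO library, so these groups overlapped, and every library labelled pIRF2 lay below every IRF2KO library. Non-overlap of that kind was found for 4 of 31 genes (FDPS, MVD, FASN and DHCR7; 11.5% of all genes) and the reverse for 2 (SQLE and STARD4; 11.1%). Its difference was the largest of the set in IRF2KO against WT (0.65 ± 0.21, edgeR adjusted p = 0.26), and -0.54 ± 0.20 in the libraries labelled pIRF2 against IRF2KO (adjusted p = 0.44). With GC and length trends taken out its value against WT was 0.23 ± 0.11.

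MVK, mevalonate kinase (chromosome 12, 109573255 to 109598117, plus strand), had 7.21, 11.7 and 13.1 CPM in WT, 10.5, 22.5 and 12.5 CPM in IRF2KO and 11.0, 9.82 and 10.9 CPM in libraries labelled pIRF2. Its highest value was that of IRF2KO replicate 2, and the other IRF2KO libraries lay inside the WT range. The log2 fold change of 0.51 ± 0.28 (edgeR adjusted p = 0.29) turned to -0.11 without WT replicate 1 and IRF2KO replicate 2. With GC and length trends taken out of all 9 libraries it was 0.21 ± 0.16. PMVK, the phosphomevalonate kinase that follows it, had 13.6, 16.4 and 16.2 CPM in WT, 16.4, 15.2 and 13.1 in IRF2KO and 14.1, 14.7 and 12.3 in those labelled pIRF2 (-0.047 ± 0.14 in IRF2KO against WT and -0.17 ± 0.14 in those labelled pIRF2 against WT, edgeR adjusted p = 0.84 and 1.0). All 3 groups overlapped at this gene. Its value in IRF2KO against WT was -0.30 ± 0.12 with GC and length trends taken out (edgeR adjusted p = 0.30).

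HMGCS1, the synthase that joins acetyl-CoA and acetoacetyl-CoA and a classical SREBP target, had 16.4, 16.2 and 14.5 CPM in WT, 17.8, 12.0 and 17.4 in IRF2KO and 19.5, 15.02 and 17.7 in the libraries labelled pIRF2. Its lowest library was IRF2KO replicate 2. The fold change against WT was -0.0014 ± 0.17 in IRF2KO (edgeR adjusted p = 1.0) and 0.15 ± 0.17 in those labelled pIRF2 (adjusted p = 1.0). The value in IRF2KO against WT was 0.25 ± 0.11 with GC and length trends taken out (edgeR adjusted p = 0.36). FDPS, which makes the farnesyl diphosphate that leads to sterols and to protein prenylation, ranged over 232 to 329 CPM, with every IRF2KO library above every WT library (0.25 ± 0.11, edgeR adjusted p = 0.27). IDI1, the isomerase of isoprenoid diphosphates, ranged over 91.3 to 213 CPM (-0.22 ± 0.25) and was lowest in IRF2KO replicate 2. ACAT2, the cytosolic thiolase that starts the route, ranged over 70.6 to 105 CPM (0.023 ± 0.14), and 52.3% of its exonic length overlaps TCP1 or SOD2 transcripts on the opposite strand, so its counts are uncertain. The overlap was 14.95% for HMGCS1, 14.8% for IDI1 and 18.6% for FDPS, each with an antisense transcript.

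In the 11 enzymes from squalene to cholesterol, 10 were tested and 0 passed, with medians of 0.11, -0.060 and 0.060 in the 3 comparisons. LSS, lanosterol synthase (chromosome 21, 46188141 to 46228824, minus strand), had 67.4, 85.9 and 77.7 CPM in WT, 99.5, 127 and 86.7 CPM in IRF2KO and 86.9, 77.002 and 78.5 CPM in libraries labelled pIRF2. Every IRF2KO library lay above every WT library, the nearest by less than 1 CPM. The fold change was 0.44 ± 0.15 against WT (edgeR adjusted p = 0.26) and -0.37 ± 0.15 in those labelled pIRF2 against IRF2KO (adjusted p = 0.44), and 0.13 ± 0.095 against WT once trends with GC content and length had been removed.

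DHCR7, which makes cholesterol from its immediate precursor (chromosome 11, 71428193 to 71452868, minus strand), had 133, 158 and 199 CPM in WT, 187, 263 and 195 CPM in IRF2KO and 185, 183 and 187 CPM in libraries labelled pIRF2. WT replicate 3 lay above IRF2KO replicates 1 and 3, so the groups overlapped, and the 3 libraries labelled pIRF2 lay within 4 CPM of each other. In IRF2KO against WT the difference was 0.40 ± 0.16 (edgeR adjusted p = 0.26), and 0.10 without the libraries at both ends. SQLE, squalene epoxidase, an oxygen-dependent control point of the route, had 69.7, 54.8 and 69.3 CPM in WT, 58.8, 49.7 and 68.8 CPM in IRF2KO and 70.9, 76.7 and 79.6 CPM in those labelled pIRF2. These last 3 values lay above all 6 others. SQLE was the gene of the set with the largest positive value in the libraries labelled pIRF2 against IRF2KO (0.36 ± 0.14, edgeR adjusted p = 0.44); against WT it was 0.23 ± 0.14 (adjusted p = 1.0).

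NSDHL, a dehydrogenase that helps to remove sterol methyl groups, had 29.7, 28.2 and 33.1 CPM in WT, 33.0, 33.7 and 34.7 CPM in IRF2KO and 33.3, 32.8 and 33.4 CPM in libraries labelled pIRF2. The 9 libraries overlapped between groups (0.16 ± 0.11 and 0.13 ± 0.11 against WT; edgeR adjusted p = 0.37 and 1.0). MSMO1, the oxygenase that begins the same demethylation (chromosome 4, 165327623 to 165343160, plus strand), had 114, 95.1 and 79.0 CPM in WT, 119.9, 80.2 and 101 CPM in IRF2KO and 90.3, 91.1 and 104 CPM in those labelled pIRF2. Its WT and IRF2KO libraries overlapped (0.063 ± 0.17, edgeR adjusted p = 0.81). EBP, chosen after its values were seen, had every IRF2KO library above every WT library (132 ± 10.3 CPM in WT and 158 ± 12.1 CPM in IRF2KO, SD, n = 3; 0.26 ± 0.11, edgeR adjusted p = 0.26).

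In the remaining tested enzymes of this stretch, the libraries overlapped between groups in every comparison. FDFT1, which commits farnesyl diphosphate to sterols, ranged over 569.6 to 696 CPM, with a 95% interval of -0.28 to 0.20 around a log2 fold change of -0.042 in IRF2KO against WT. CYP51A1, the lanosterol demethylase, ranged over 75.5 to 110.0 CPM (-0.076 ± 0.15), and 83.2% of its exonic bases coincide with overlapping annotated transcripts, mostly on its own strand, so its counts are uncertain. TM7SF2, a sterol reductase, ranged over 5.20 to 12.2 CPM (0.29 ± 0.27, and -0.22 without the libraries at both ends). In the libraries labelled pIRF2 it stood at -0.61 against IRF2KO, the lowest value of the set there, without passing after adjustment. Over the alternatives that value ran from -0.86 to -0.12. Against WT it was -0.32. SC5D, a sterol desaturase, ranged over 6.17 to 9.53 CPM (-0.077 ± 0.20). HSD17B7, a ketosteroid reductase, had 4 counts in all 9 libraries together, and the gene has a near-identical pseudogene, so this count is uncertain.

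Among the genes of SREBP control, 0 of 5 passed, and the median in IRF2KO against WT was 0.43, but -0.016 without the libraries at both ends and 0.15 with GC and length trends taken out. SREBF1, the SREBP of fatty acid genes (chromosome 17, 17810399 to 17837002, minus strand), had 40.7, 48.7 and 60.0 CPM in WT, 50.9, 100.1 and 53.1 CPM in IRF2KO and 56.7, 52.2 and 53.2 CPM in libraries labelled pIRF2. IRF2KO replicate 2 stood at nearly the sum of the other IRF2KO libraries, and these lay inside the WT range. The log2 fold change was 0.45 ± 0.24 against WT (edgeR adjusted p = 0.28) and -0.33 ± 0.23 in those labelled pIRF2 against IRF2KO (adjusted p = 0.52). It was -0.066 against WT without the libraries at both ends and -0.020 ± 0.079 with GC and length trends taken out.

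SREBF2, the SREBP of sterol genes whose promoter holds the sterol regulatory element shown above (chromosome 22, 41833079 to 41907308, plus strand), had 113, 137 and 173 CPM in WT, 143, 264 and 164 CPM in IRF2KO and 165, 146 and 156 CPM in libraries labelled pIRF2. Its libraries fell in the same pattern as those of SREBF1, with IRF2KO replicate 2 highest and WT replicate 1 lowest. The difference in IRF2KO against WT was 0.43 ± 0.21 (edgeR adjusted p = 0.27). It was -0.016 without the libraries at both ends and 0.15 ± 0.10 with GC and length trends taken out. The ratio of SREBF2 to SREBF1 per kilobase was 2.96, 2.99 and 3.07 in WT, 2.99, 2.80 and 3.28 in IRF2KO and 3.10, 2.98 and 3.12 in those labelled pIRF2. The ratio therefore stayed near 3 in every library while both genes varied. Both transcripts are high in GC (62.8% in SREBF1 and 57.1% in SREBF2), and the part of GC content in this ratio was not tested.

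SCAP, the sterol-sensing escort (chromosome 3, 47413694 to 47477126, minus strand), had 33.2, 34.9 and 44.6 CPM in WT, 41.6, 75.8 and 51.7 CPM in IRF2KO and 49.1, 40.5 and 45.9 CPM in libraries labelled pIRF2. WT replicate 3 lay above IRF2KO replicate 1, and IRF2KO replicate 2 was again the highest library. Its log2 fold changes were 0.59 ± 0.20 in IRF2KO against WT (edgeR adjusted p = 0.26; 0.17 ± 0.10 with GC and length trends taken out) and -0.32 ± 0.20 in those labelled pIRF2 against IRF2KO (adjusted p = 0.49). STARD4, a cytosolic sterol carrier, ran the other way, with 34.1 ± 6.28 CPM in WT, 27.8 ± 3.26 in IRF2KO and 33.9 ± 0.845 in those labelled pIRF2 (SD, n = 3; -0.29 ± 0.15 and 0.29 ± 0.15, edgeR adjusted p = 0.28 and 0.45). At 34.2% GC its transcript is the lowest in GC of the 31.

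INSIG1 (chromosome 7, 155297776 to 155310235, plus strand) had 308, 300.2 and 297 CPM in WT, 389, 339.7 and 365 CPM in IRF2KO and 372, 352 and 379 CPM in libraries labelled pIRF2. All 6 libraries of the other groups lay above all 3 WT libraries, and IRF2KO and those labelled pIRF2 overlapped. The log2 fold change was 0.27 ± 0.094 in IRF2KO against WT (edgeR adjusted p = 0.26), 0.29 ± 0.094 in those labelled pIRF2 against WT (adjusted p = 1.0) and 0.012 ± 0.094 between the last pair (95% interval -0.19 to 0.22). It did not pass after adjustment. Libraries that did not overlap in this direction were found for 6 of 31 genes in IRF2KO against WT (SCD, EBP, LSS, FDPS, FASN and INSIG1) and for 8.97% of all genes, and for 0 of 31 in the other direction (8.23%). In the libraries labelled pIRF2 against WT they were found for 3 genes (SQLE, ACLY and INSIG1; 5.81%) and for 0 in the other direction (5.75%).

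**Figure D3:**
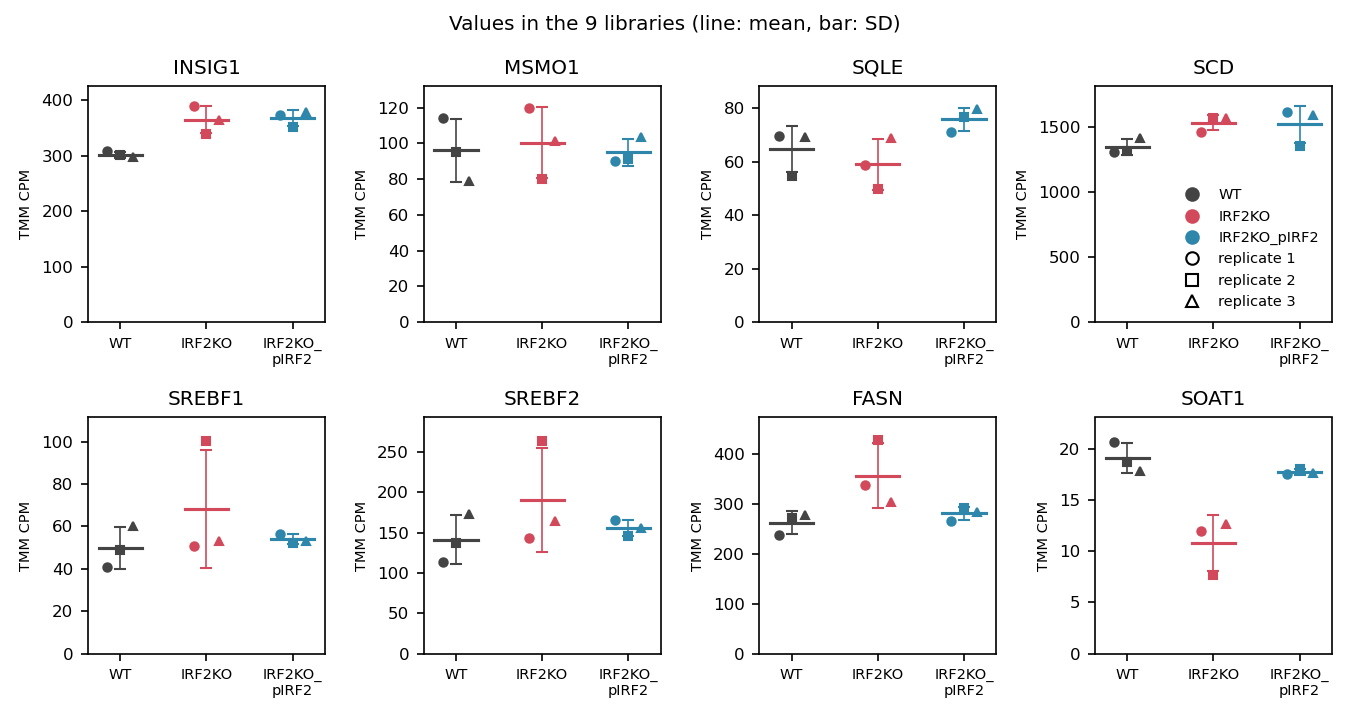
CPM in each library for 7 genes of the set and SOAT1, with the group mean (line) and SD (bar, n = 3). INSIG1 lies between 339.7 and 389 CPM outside WT and between 297 and 308 CPM in WT, whereas for SREBF1, SREBF2 and FASN IRF2KO replicate 2 (red square) stands apart from its group.

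Of 7 enzymes of fatty acid synthesis, 6 were tested and 0 passed. FASN, the synthase itself (chromosome 17, 82078333 to 82098332, minus strand), had 237, 273 and 278 CPM in WT, 338, 428 and 303 CPM in IRF2KO and 266, 292 and 284 CPM in libraries labelled pIRF2. The IRF2KO libraries lay above all 6 others. FASN had the smallest unadjusted p of the set in IRF2KO against WT (0.44 ± 0.13, edgeR adjusted p = 0.26) and stood at -0.34 ± 0.13 in those labelled pIRF2 against IRF2KO (adjusted p = 0.44). With GC and length trends taken out these values were -0.054 ± 0.13 and 0.051 ± 0.13, with the opposite signs. The value in IRF2KO against WT kept its sign without the libraries at both ends (0.22) and with both changes together (0.15). Its transcript has the highest GC content of the 31 (65.3%).

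SCD (chromosome 10, 100347124 to 100364834, plus strand) had 1309, 1320.4 and 1421 CPM in WT, 1467, 1571 and 1571 CPM in IRF2KO and 1615, 1358 and 1594 CPM in libraries labelled pIRF2. The IRF2KO libraries lay above WT, while replicate 2 of those labelled pIRF2 fell inside the WT range (0.19 ± 0.10 and 0.17 ± 0.10 against WT, edgeR adjusted p = 0.30 and 1.0). The first was 0.27 ± 0.099 with GC and length trends taken out (edgeR adjusted p = 0.28). FADS2, the desaturase that starts the polyunsaturated route (chromosome 11, 61792980 to 61867354, plus strand), had 92.7, 103 and 153 CPM in WT, 133, 215 and 169 CPM in IRF2KO and 164, 144 and 166 CPM in those labelled pIRF2. WT replicate 3 lay among the knockout libraries and the other WT libraries below them. Its differences against WT were 0.57 ± 0.20 in IRF2KO and 0.44 ± 0.20 in those labelled pIRF2 (edgeR adjusted p = 0.26 and 1.0). The first was 0.24 without the libraries at both ends and 0.23 ± 0.10 with GC and length trends taken out.

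FADS1, the desaturase of the next step and the neighbour of FADS2 on chromosome 11, ranged over 116 to 155 CPM and stood at -0.10 ± 0.11 and -0.0018 ± 0.11. Per kilobase, the ratio of FADS2 to FADS1 was 0.556, 0.748 and 1.05 in WT, 0.927, 1.71 and 1.13 in IRF2KO and 1.12, 0.991 and 1.05 in the libraries labelled pIRF2, so it varied more within WT and within IRF2KO than among those labelled pIRF2. ACLY, which supplies cytosolic acetyl-CoA from citrate, ranged over 106 to 136 CPM (0.17 ± 0.11). ACACA, the carboxylase that makes malonyl-CoA, ranged over 72.4 to 86.2 CPM (0.13 ± 0.10, 95% interval -0.10 to 0.36). ELOVL6, an elongase, had 49 counts over all libraries, at 0.131 to 0.510 CPM, near the floor.

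The LXR arm was low in these cells and showed no change past the test (0 of 3 tested). NR1H2, the widely expressed LXR beta (chromosome 19, 50329653 to 50382982, plus strand), had 11.6, 17.1 and 22.5 CPM in WT, 18.8, 32.1 and 21.0 CPM in IRF2KO and 20.7, 18.0 and 15.4 CPM in libraries labelled pIRF2. WT replicate 1 was the lowest library and IRF2KO replicate 2 the highest. Its log2 fold change in IRF2KO against WT was 0.49 ± 0.25 (edgeR adjusted p = 0.28). It was 0.0018 without the libraries at both ends and 0.17 ± 0.14 with GC and length trends taken out. NR1H3, LXR alpha, typical of macrophages and liver, had 6.95, 7.70 and 9.55 CPM in WT, 7.31, 9.72 and 6.71 in IRF2KO and 6.40, 7.24 and 7.43 in those labelled pIRF2 (-0.027 ± 0.18 and -0.20 ± 0.18 against WT, edgeR adjusted p = 0.93 and 1.0). All 3 groups overlapped.

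MYLIP, the LXR-induced ubiquitin ligase that degrades lipoprotein receptors, had 8.70, 9.33 and 12.2 CPM in WT, 8.10, 11.1 and 11.1 in IRF2KO and 11.8, 11.3 and 10.8 in the libraries labelled pIRF2 (0.00094 ± 0.18 and 0.16 ± 0.17 against WT, edgeR adjusted p = 1.0 and 1.0), again with overlap. The exporters ABCA1 and ABCG1, the best-known LXR targets of macrophages, had 4 and 23 counts over all 9 libraries. No library of ABCA1 exceeded the floor of 3 counts, and ABCG1 reached 0.304 CPM at most, so differences between groups were not detectable at this depth.

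The spread within groups followed GC content. IRF2KO replicate 2 was the highest of the 9 libraries for 15 of the 31 genes and the lowest for 8, and WT replicate 1 was the lowest for 17 and the highest for 5. Set against the mean of the other IRF2KO libraries on the log2(CPM + 1) scale, replicate 2 was higher in 13 and lower in 1 of the 14 genes whose longest transcript is over 55% GC, with a median difference of 0.53 (0.47 over all tested genes of that class). In the 6 genes under 45% GC (HMGCS1, IDI1, CYP51A1, MSMO1, SC5D and STARD4) it was lower in all 6, with a median difference of -0.42 (-0.35 over all tested genes of that class). Across the 31 genes, which are not independent replicates, Pearson's r was taken between GC content and a library's deviation from its group mean. It was 0.83 in IRF2KO replicate 2 and -0.84 in WT replicate 1, and the set held the same trend there as all tested genes (0.77 and -0.71). It was -0.56 and -0.82 in IRF2KO replicates 1 and 3, and 0.35 and 0.74 in WT replicates 2 and 3. Deviations within a group balance out for each gene, so these values are not independent of those of IRF2KO replicate 2 and WT replicate 1. In the libraries labelled pIRF2 Pearson's r lay between -0.44 and 0.22.

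**Figure D4:**
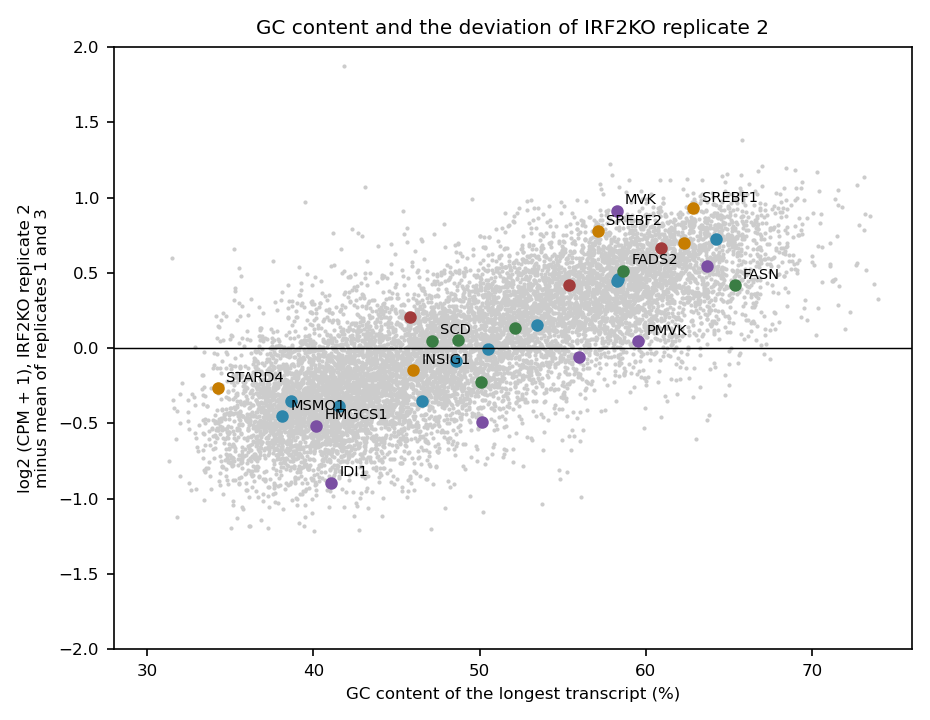
GC content of the longest transcript (%) against the log2 (CPM + 1) of IRF2KO replicate 2 minus the mean of replicates 1 and 3, for all tested genes (grey) and the 31 genes (coloured by role). IDI1 and HMGCS1 lie low at the left and SREBF1 and FASN above 0 at the right, along the trend of all genes.

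With trends of GC content and length removed from each library, 2 of 31 genes passed in IRF2KO against WT, both higher, where 0.922% of all genes passed (0.356% higher). INSIG1 was higher by 0.41 ± 0.073 on the log2 scale (edgeR adjusted p = 0.016) and MSMO1 by 0.40 ± 0.080 (adjusted p = 0.029). In IRF2KO against WT no gene of the set passed in any fit that kept the GC and length trends, and adjusted p-values over all 30 alternatives ran from 0.016 to 0.96 for INSIG1 and from 0.022 to 0.96 for MSMO1. With each library left out in turn from this fit, INSIG1 passed in 7 of 9 fits, but not without WT replicate 1 (adjusted p = 0.082) or WT replicate 2 (0.11). MSMO1 passed in 2 of 9, without IRF2KO replicate 3 or replicate 2 labelled pIRF2. Its adjusted p otherwise reached 0.15. The size was steadier, at 0.39 to 0.44 for INSIG1 and 0.36 to 0.47 for MSMO1. Without both WT replicate 1 and IRF2KO replicate 2, neither passed, against 0.727% of all genes (0.37, adjusted p = 0.066, and 0.37, adjusted p = 0.14). With the trends taken out of all 9 libraries, the values in those labelled pIRF2 against WT were 0.32 ± 0.073 for INSIG1 (adjusted p = 0.13) and 0.094 ± 0.080 for MSMO1 (0.71), and 0 of 31 genes passed there (0.348% of all genes) or against IRF2KO (0.574%).

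The other genes of these pathways were read from a list of 49, of which 45 were tested: 20 of sterol handling, 17 of fatty acid metabolism and 8 linked to LXR. By edgeR 0 of the 45 passed in any comparison. In IRF2KO against WT, 1 was higher (POR, the reductase that serves CYP51A1 and SQLE; 10.7% of all genes) and 6 were lower (MBTPS2, SOAT1, LIPA, NPC2, GPAM and VLDLR; 7.98%) at an unadjusted p under 0.05. The median of the 45 was -0.12, and by kind it was -0.19 for sterol handling, -0.12 for fatty acid metabolism and 0.24 for genes linked to LXR. IRF2KO libraries lay wholly below WT for 9 of the 45 (8.23% of all genes) and wholly above for 2 (8.97%). The gene with the smallest p, chosen after its values were seen, was SOAT1, which esterifies cholesterol for storage. It had 20.7, 18.7 and 17.9 CPM in WT, 12.0, 7.64 and 12.7 CPM in IRF2KO and 17.5, 18.0 and 17.6 CPM in libraries labelled pIRF2. All IRF2KO libraries lay below all 6 others. SOAT1 stood at -0.83 ± 0.18 in IRF2KO against WT (edgeR adjusted p = 0.11, DESeq2 adjusted p = 0.0021). In those labelled pIRF2 against IRF2KO it stood at 0.72 ± 0.18 (edgeR adjusted p = 0.26, DESeq2 adjusted p = 0.023). By DESeq2 it was the 1 of 45 to pass in each, where 1.05% and 0.59% of all genes did. With GC and length trends taken out it also passed in both, again as 1 of 45 (0.922% and 0.574% of all genes). These values were -0.60 ± 0.11 (edgeR adjusted p = 0.016) and 0.54 ± 0.11 (adjusted p = 0.038). But the first was lost without WT replicate 2 (0.083) and the last without any of 7 libraries (0.058 to 0.20). Over all alternatives its adjusted p ran from 0.0021 to 0.96 and from 0.023 to 0.79.

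NPC2, which moves cholesterol out of lysosomes and was also chosen after its values were seen, had 278, 248 and 269 CPM in WT, 219, 179.6 and 223 CPM in IRF2KO and 251, 294 and 262 CPM in libraries labelled pIRF2 (-0.36 ± 0.11 and 0.38 ± 0.11, edgeR adjusted p = 0.26 and 0.44). Its IRF2KO libraries also lay below all others. The value in IRF2KO against WT was -0.16 ± 0.083 with GC and length trends taken out (edgeR adjusted p = 0.40). It was -0.23 without the libraries at both ends. CH25H, the interferon-induced enzyme that makes an oxysterol which blocks SREBP processing, had 0 counts in all 9 libraries, which allows at most 3 counts in each, or 0.129 to 0.196 CPM.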

How the data were processed

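RNA of 9 U937-Cas9 samples was isolated by a Macherey Nagel kit and made into libraries with a Lexogen SENSE kit for mRNA, per the labels' protocols. The deposited table holds raw read counts per Ensembl gene. Bowtie2 2.3.3, TopHat2 2.1.1, HTSeq 0.9.1 and the hg38 build are named in the submitters' processing notes; their roles, the annotation and the strand setting were not given in the sources used here, so reads of overlapping genes cannot be told apart. Gene names, positions, GC content and exonic length came from GENCODE 29 (20012 of 20265 rows matched).

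Counts were tested with edgeR 4.0.16 (TMM factors, filterByExpr, quasi-likelihood F-test, all 9 libraries in 1 fit, Benjamini-Hochberg adjustment over 11517 genes, threshold 0.05) in R 4.3.3, after a test on simulated data. SEs were the log2 fold change divided by the square root of F. DESeq2 1.42.0, limma 3.58.1 and the other alternatives are given at the end. Trends with GC content and length were removed per library with mgcv 1.9.3 smooths as offsets. Floors of 3 counts cover counting error only. No 2 replicates of a group agreed within sampling noise.

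The genes and lists were chosen with earlier results of these data known. Full values were given for any gene that passed the test, in each role the 2 genes with the largest log2 fold change in IRF2KO against WT and the 2 with the smallest unadjusted p in IRF2KO_pIRF2 against WT, the regulators SREBF1, SREBF2, INSIG1, NR1H2 and NR1H3, and CH25H; other genes singled out were chosen after their values were seen.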

Additional observations from a re-analysis of the deposited data

How the results depend on the processing

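At an adjusted p under 0.05, 0 of 31 genes passed in 22 of 30 alternatives in IRF2KO against WT, in 29 of 29 in the libraries labelled pIRF2 against IRF2KO and in 28 of 29 in those labelled pIRF2 against WT. The other size-factor method, no filter, 2 groups alone, the mitochondrial share as a covariate, DESeq2 and limma-voom were among them. The medians ran from 0.097 to 0.22, from -0.14 to -0.0078 and from 0.012 to 0.12. With GC and length trends removed, 2 passed in IRF2KO against WT, and with libraries left out in turn, with or without those trends, 0 to 2. In those labelled pIRF2 against WT this range was 0 to 1, the 1 being FADS2 (0.47, adjusted p = 0.040) without WT replicate 3 and with the trends removed. Same-numbered libraries correlated at -0.43 to 0.61 in their deviations from group means, highest between replicate 1 of WT and of IRF2KO. The labels do not say whether they share more than a number. With the replicate block 0 passed in each comparison (IRF2KO against WT median 0.17).

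The sign of a log2 fold change at least as large as its SE turned in the following cases, and the cause was not tested. In IRF2KO against WT, removing the trends gave SREBF1 -0.020, TM7SF2 -0.12, STARD4 0.082 and FASN -0.054. Leaving out both ends of the first component gave SREBF1 -0.066, MVK -0.11, TM7SF2 -0.22 and SREBF2 -0.016, and both changes together gave SREBF1 -0.11, MVK -0.12, NR1H2 -0.025, TM7SF2 -0.27 and SREBF2 -0.014. With each library left out, over fits with the trends kept or removed, SREBF1 ran from -0.10 to 0.62, TM7SF2 from -0.23 to 0.53, FDPS from -0.0065 to 0.29, STARD4 from -0.40 to 0.15 and FASN from -0.18 to 0.54; with the trends kept, TM7SF2 alone of these turned (-0.017 without IRF2KO replicate 2). In the libraries labelled pIRF2 against IRF2KO, removing the trends gave SREBF1 0.063, SCAP 0.030, FASN 0.051 and DHCR7 0.0065, leaving out both ends gave SREBF1 0.055 and SREBF2 0.021, and both together SREBF1 0.15, SCAP 0.046, DHCR7 0.014 and SREBF2 0.052. Over the same kinds of fit there, SREBF1 ran from -0.50 to 0.15, SCAP from -0.50 to 0.10, FDPS from -0.23 to 0.050, STARD4 from -0.038 to 0.37, FASN from -0.45 to 0.17, DHCR7 from -0.30 to 0.024 and SREBF2 from -0.46 to 0.052; with the trends kept, SREBF1 (0.055) and SREBF2 (0.021) alone of these turned, both without IRF2KO replicate 2. In those labelled pIRF2 against WT, the mitochondrial covariate gave SCAP -0.051 and DHCR7 -0.030, and libraries over 15% mitochondrial counts gave DHCR7 -0.11. Libraries under 15% gave no value there, as none is labelled pIRF2. The fits that joined trend removal with left-out libraries were chosen after seeing the data. Low counts leave HSD17B7, ABCA1, ABCG1 and ELOVL6 unresolved, and those of HSD17B7 are also uncertain because of its near-identical pseudogene.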

Other observations

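Across the 9 libraries, the genes of the set whose log2(CPM + 1) followed that of INSIG1 most closely were SCD (Pearson's r = 0.69), NSDHL (0.66), FADS2 (0.49), HMGCS1 (0.47) and FDPS (0.46). The libraries fall into the 3 groups compared above and share them, so these values are a description only. HMGCS1 stood closest by rank (Spearman's rho = 0.77, against 0.65 for SCD and 0.38 for NSDHL).

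FASN makes palmitate and SCD desaturates fatty acids of that kind. The ratio of SCD to FASN per kilobase ranged from 6.40 to 10.6 over the 9 libraries. That of NR1H2 to NR1H3 ranged from 2.01 to 3.99. Both ranges are wider than that of SREBF2 to SREBF1 (2.80 to 3.28). SCD and FASN differ in GC content, as do their values in IRF2KO replicate 2. SREBF1 and SREBF2 are both over 55% GC and were both highest in that library. The part of GC content in these ratios was not tested.

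ME1, which supplies NADPH for fatty acid synthesis, had 0 counts in all 9 libraries, which allows at most 3 counts in each.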
